A study of Mus musculus with 3 samples.

Results

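Chrm2 and Chrm3 are the 2 muscarinic receptor genes described here, of 32285 genes measured, in endothelial cells (ECs) of mouse lung. They were taken by symbol and were chosen by measured values: their levels as markers of capillary subsets, the lower Chrm2 level 6 h after melanoma cell injection and their joint detection with Vegfc, all in these same libraries. Those values are given below as a description.

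Muscarinic receptors are cell surface receptors for acetylcholine that signal through G proteins. CHRM2 couples to inhibitory Gi proteins, which lower cyclic AMP, and is best known for slowing the heart. CHRM3 couples to Gq proteins, which activate phospholipase C and raise intracellular calcium, and in many vessels its activation makes ECs release nitric oxide.

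The data were 3 droplet single-cell RNA libraries, 1 per group, made to follow the response of the lung endothelium to tumor cells that arrive through the blood. All mice were wild-type C57BL/6. The control library came from mice that received PBS in the tail vein and were taken 6 h later. For the 6 h and 30 h libraries, 200000 B16-F10 cells, a mouse melanoma line, had been injected in 100 µl by the same route, and lungs were collected after that time. The labels give 2 mice per treatment and the methods 3 for the experiment with a 30 h library, so the number was not settled. Their cells were pooled, and mice could not be told apart. Cells carrying surface Pecam1 but no Ptprc were sorted, and dye-labelled melanoma cells also entered the 6 h library. No PBS library at 30 h was analysed here, and both melanoma libraries were set against the same 6 h control. With 1 library per group neither a replicate error nor any test between groups could be given. All intervals below are exact 95% intervals of counting error only.

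ECs were barcodes with 1000 to 5000 detected genes, under 20% mitochondrial UMIs and at least 2 UMIs of Pecam1 and Cdh5 together. A UMI marks 1 captured RNA molecule. This gave 11231 control, 10583 6 h and 9278 30 h barcodes, which were 97.6%, 96.8% and 97.5% of all barcodes within the same gene and mitochondrial limits. Their median depths were 7782, 8033 and 8675.5 UMIs. Between 22 and 38 EC barcodes were shared by any pair of libraries. The 30 h library stood apart from the others: 4592 of its barcodes formed most of a Leiden cluster of 4632, led by Cdk8, Cmss1 and Cxcl12 and scored as gCap-like. Cdk8 and Cmss1 were counted here among rRNA-like gene models. These models held 0.596%, 0.757% and 2.44% of EC UMIs in the control, 6 h and 30 h libraries, and the part of a technical difference was not tested.

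Classes were gated by the sum of 5 or 6 marker genes. General capillary cells (gCap), the more common cells of the alveolar capillary, made up 56.3% of control ECs and 59.3% and 47.5% of those at 6 h and 30 h. Aerocytes (aCap), large capillary cells specialised for gas exchange, made up 14.9%, 12.9% and 18.9%. Vein cells were 5.11%, 4.01% and 4.45%, artery cells 1.40%, 1.20% and 2.24%, and lymphatic cells (LECs) 0.641%, 0.491% and 0.593%. The remaining 21.7%, 22.2% and 26.3% fitted no class. In the control library 1756 of 6318 gCap barcodes and 22 of 574 vein barcodes lay within 2 marker UMIs of the limit of their class.

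Chrm2 (ENSMUSG00000045613) lies at chr6:36388084-36528414 on the plus strand of GRCm38, with its protein coded in 1 exon. In the control ECs it had 10420 UMIs in 4162 barcodes, which was 37.1% of ECs, and its level was 114.7 CPM (UMIs per 1000000 UMIs, interval 112.5 to 116.9). After each barcode was thinned to 2000 UMIs, which left out 195 shallower barcodes, 16.7% remained positive. A widespread, low count per cell was typical: the median positive barcode had 2 UMIs and the highest 33.

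Among the gated classes the Chrm2 level was highest in gCap. In the control library it was 146 CPM in gCap (142.6 to 149.5, 7068 UMIs), 100.5 in vein (92.7 to 108.8), 37.6 in aCap (34.8 to 40.6), 33.2 in artery (24.7 to 43.6) and 13.0 in LECs (5.61 to 25.6, 8 UMIs). The gCap level was 3.88-fold that of gated aCap and 1.45-fold that of vein. The aCap gate set no limit on gCap markers. In aCap-like Leiden clusters of 662, 119 and 683 control barcodes, drawn without the gates, Chrm2 was at 8.16, 11.3 and 32.9 CPM. The aCap and artery levels did not differ beyond counting error (log2 ratio 0.18, -0.23 to 0.62), whereas LECs were below aCap (log2 ratio -1.53, -2.75 to -0.55). At 6 h gCap and vein again led, and artery, at 24.1 CPM, stood above aCap, at 14.1. At 30 h the order was again gCap, vein, aCap, artery and LEC, at 103.1, 62.9, 28.2, 19.6 and 12.9 CPM. In all, gCap held 67.8% of the control EC Chrm2 UMIs.

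Chrm3 (ENSMUSG00000046159) lies at chr13:9875486-10360847 on the minus strand of GRCm38, a gene of 485 kb. It had 2629 UMIs in 813 control EC barcodes, or 7.24% of ECs, and a level of 28.9 CPM (27.8 to 30.1). With each barcode thinned to 2000 UMIs, 3.57% were positive. The libraries were made from RNA 3′ ends, the counts were not scaled by length, and whether intronic reads were counted was not given. The levels of Chrm2 and Chrm3 were therefore not ranked against each other as transcripts.

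The vessels richest in Chrm3 were veins and lymphatics. In the control library the Chrm3 level was 142.8 CPM in LECs (114.6 to 176, 88 UMIs in 72 barcodes), 139.2 in vein (130 to 149, 842 UMIs), 23.5 in gCap (22.2 to 24.9), 15.6 in artery (10.0 to 23.2, 24 UMIs) and 4.91 in aCap (3.94 to 6.05). Vein and LEC levels did not differ beyond counting error in the control library (log2 ratio -0.04, -0.36 to 0.30). Vein exceeded gCap 5.92-fold. The gCap to artery ratio was 1.51-fold, with the lower bound of its log2 interval at 0.01. Although vein cells were 5.11% of control ECs, they held 32.0% of the Chrm3 UMIs, and gCap held 43.3%. In the 6 h library vein was at 123.4 CPM and LECs at 161.9, and at 30 h they were at 196 and 143.4.

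**Figure D1:**
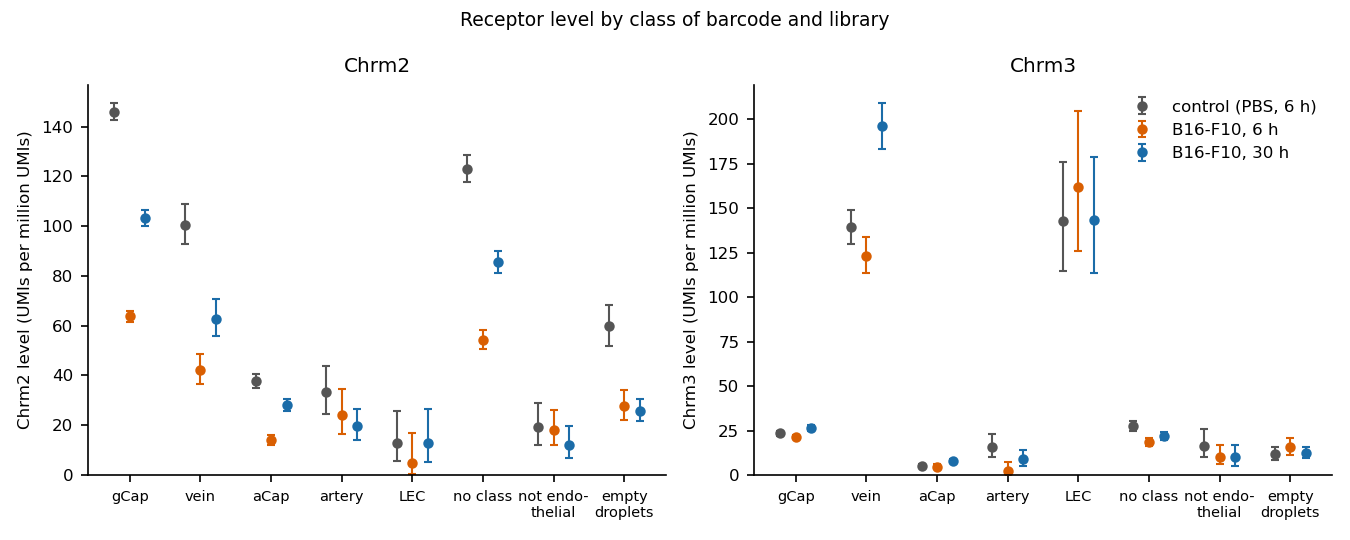
Levels of Chrm2 (left) and Chrm3 (right) in CPM, by class of barcode, in the control (grey), 6 h (orange) and 30 h (blue) libraries, with 1 point per library and exact 95% counting intervals. Chrm2 is highest in gCap, at 146, 63.7 and 103.1, and Chrm3 in vein and LEC, where every point lies above 120. Barcodes with under 2 UMIs of Pecam1 and Cdh5 (not endothelial) and empty droplets, whose RNA makes up only a share of an EC barcode, are shown beside them.

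The receptor ratio differed between gCap and vein. For each Chrm3 UMI there were 6.21 Chrm2 UMIs in control gCap and 0.722 in vein. In empty droplets (barcodes under 100 UMIs), which carry free RNA, the ratio was 5.17. In the 6 h library the ratio was 2.98 in gCap and 0.343 in vein, and in the 30 h library it was 3.90 and 0.321.

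Free RNA can add to the level of a class. If all red cell and epithelial RNA in EC barcodes were free RNA, free RNA made up 11.1%, 11.4% and 9.11% of EC UMIs in the control, 6 h and 30 h libraries. At those shares the empty droplets would supply 6.65, 3.15 and 2.36 CPM of Chrm2 and 1.29, 1.77 and 1.11 CPM of Chrm3. The LEC level of Chrm2 had an interval that included this supply in the control library. Barcodes with under 2 UMIs of Pecam1 and Cdh5 together (median 2504 UMIs in the control library) had Chrm2 in 6.18% (3.64 to 9.71) and Chrm3 in 2.18% (0.805 to 4.69). The control share of LECs with Chrm2 was 9.72% (3.999 to 19.01, median 8452.5 UMIs) and that of aCap with Chrm3 was 1.73% (1.16 to 2.48, median 10615 UMIs). Neither was above the share in those barcodes beyond counting error. As that group was shallow and could hold ECs, these shares do not settle what is background. The levels did not give the same order: Chrm3 in aCap lay above the free RNA supply in every library, at 4.91, 4.75 and 7.86 CPM with lower bounds of 3.94, 3.71 and 6.68, and Chrm2 in LECs did so at 30 h (5.17 to 26.5). Whether these 2 classes express the receptor was therefore not settled.

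The levels were also taken in clusters drawn without the gates. In a Leiden cluster led by Slc6a2, Car8 and Prss23 (vein-like), Chrm3 stood at 135 CPM in the control and at 123 and 197 CPM in the 6 h and 30 h libraries, and in one led by Ccl21a, Mmrn1 and Reln (LEC-like) at 144, 159 and 146. An aCap-like cluster led by Fibin and Rgs6 had 0 Chrm3 UMIs in 662 control barcodes, which allows up to 0.558 CPM, and 8.16 CPM of Chrm2. That limit is below the 1.29 CPM estimated above as the control supply of Chrm3 by free RNA, so the estimate was too high for these barcodes. A cluster led by the hemoglobin genes Hbb-bt, Hba-a2 and Hba-a1 had 215, 101 and 160 CPM of Chrm2 in 425, 317 and 162 barcodes, above the gated gCap level of each library. Of the gated gCap barcodes, 83.3%, 84.4% and 81.3% fell in clusters scored as gCap-like.

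Positive cells were also distributed differently for the 2 receptors. Chrm2 was spread over many barcodes with few UMIs, and 10 or more UMIs were found in 74 control barcodes that held 9.31% of its UMIs. Chrm3 was concentrated: 41 control barcodes with 10 or more UMIs held 24.6% of its UMIs, and 114 with 5 to 9 UMIs held a further 27.7%. Of the 155 control barcodes with at least 5 Chrm3 UMIs, 67 were gCap and 51 vein. In the vein class, 8.89%, 7.55% and 16.7% of barcodes reached 5 UMIs of Chrm3 in the control, 6 h and 30 h libraries. In gCap the corresponding shares were 1.06%, 1.00% and 1.27%. Among ECs within the gene limits the barcode with most Chrm3, 69 UMIs, came from the control library, fitted no class and lay in a cluster led by Fabp4, Rbp7 and Cdh13. Above 5000 genes a 30 h barcode held 92.

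**Figure D2:**
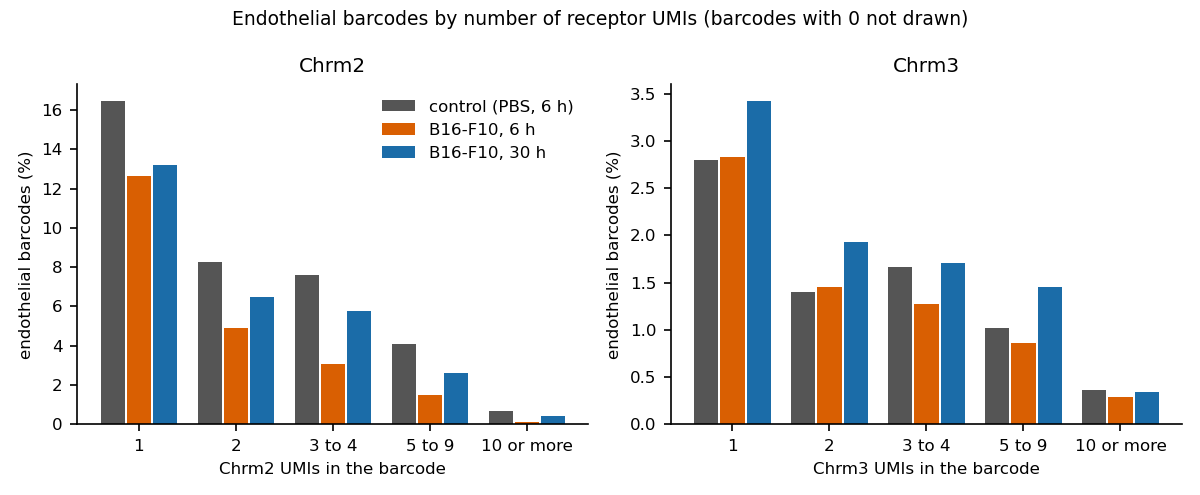
Share of EC barcodes (%) by the number of Chrm2 UMIs (left) or Chrm3 UMIs (right) they held, in the control (grey), 6 h (orange) and 30 h (blue) libraries, without barcodes at 0. For Chrm2 the bars of the 6 h library are the lowest in every bin, with 12.6% against 16.5% of control barcodes at 1 UMI and 0.104% against 0.659% at 10 or more, whereas for Chrm3 the bars of the 30 h library are the highest in each bin from 1 to 9 UMIs, at 5 to 9 UMIs with 1.46% against 1.02% of control and 0.860% of 6 h barcodes.

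Less Chrm2 was counted after melanoma cell injection. The EC level was 114.7 CPM in the control library, 51.7 (50.2 to 53.3) in the 6 h library and 76.1 (74.2 to 78.0) in the 30 h library, so the 6 h library was lowest and the 30 h library lay between. Positive ECs were 37.1%, 22.2% and 28.4%, or 16.7%, 8.56% and 11.8% at 2000 UMIs. The log2 ratio to control was -1.15 (-1.20 to -1.10) at 6 h, a 0.451-fold level, and -0.59 (-0.64 to -0.55) at 30 h. From 6 h to 30 h it was 0.56 (0.50 to 0.61).

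Among the 10175 genes whose mean over the libraries reached 5 CPM, 11 were at least 2-fold lower at 6 h on the log2(CPM + 1) scale, or 0.108%, and 9 were at or below the Chrm2 value of -1.13, Chrm2 included. Since this difference chose the gene, nothing is read from its rank. The median gene stood at -0.01. At 30 h, 0.885% of genes were at least 2-fold lower and Chrm2, at -0.59, was not among them, with 444 genes at or below it and the median gene at -0.07.

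The lower level was found in each of the classes with many Chrm2 UMIs. The gCap of the libraries lay in different clusters: gCap-like clusters led by Egr1 and by Lpl held 3069 and 2642 control barcodes, 3173 and 1632 of the 6 h library, and 24 and 31 of the 30 h library, against 11, 29 and 4592 in the Cdk8 cluster. In gCap the control, 6 h and 30 h levels were 146, 63.7 (61.5 to 65.9) and 103.1 CPM (99.9 to 106.4), with log2 ratios to control of -1.20 and -0.50. In gCap 0.11% of 10009 genes were 2-fold or more lower at 6 h, a share read beside Chrm2 only as background. Positive gCap were 44.4%, 26.9% and 37.8% of the class. In vein the levels were 100.5, 42.3 and 62.9 CPM, with log2 ratios of -1.25 (-1.49 to -1.01) and -0.68 (-0.88 to -0.47). An aCap-like cluster led by Ednrb and Apln likewise held 1, 5 and 1143 barcodes. The aCap levels were 37.6, 14.1 and 28.2 CPM, with log2 ratios of -1.42 (-1.65 to -1.19) and -0.42 (-0.58 to -0.25). The artery interval at 6 h included 0 (-0.46, -1.16 to 0.22), whereas the 30 h artery ratio was -0.76 (-1.38 to -0.14). In the larger artery-like cluster, led by Atp13a3 and Thsd7a, the levels were 47.7 (40.1 to 56.3), 30.2 (23.7 to 37.9) and 18.3 CPM (13.4 to 24.4). LECs held 8, 2 and 7 UMIs. Barcodes in no class went from 123.1 to 54.3 and 85.4 CPM, and barcodes above 5000 genes, outside the EC limits, from 102.3 to 38.3 and 61.5.

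The class shares differed between libraries. With each class weighted as in the control library, the log2 ratio of Chrm2 was -1.21 at 6 h and -0.51 at 30 h. Within positive ECs, the mean Chrm2 count was 2.50 UMIs in controls and 1.93 and 2.35 UMIs at 6 h and 30 h. Fewer positive barcodes and fewer UMIs per positive barcode thus occurred together. Empty droplets had 59.7, 27.7 and 25.9 CPM of Chrm2 in the 3 libraries. With the free RNA supply subtracted and the level rescaled to the remaining UMIs, ECs had 121.6, 54.8 and 81.1 CPM. Dissociation-response genes such as Fos and Jun also moved with the libraries: 26.4% of control, 43.3% of 6 h and 14.1% of 30 h gCap held 20 or more of their thinned UMIs. Within the bins of these genes the Chrm2 ratio at 6 h was between -1.33 and -1.03, and at 30 h between -0.55 and -0.44.

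Chrm3 moved little in ECs as a whole. From 28.9 CPM in the control library the level stood at 23.7 (22.7 to 24.8) in the 6 h and at 31.0 (29.8 to 32.2) in the 30 h library. The log2 ratio was -0.29 (-0.37 to -0.20) at 6 h and 0.10 (0.02 to 0.18) at 30 h. At 6 h, 8.37% of genes were at or below the Chrm3 value. The small 30 h difference depended on the barcodes and the scaling used. It was 0.01 after removal of predicted doublets and -0.07 (-0.17 to 0.02) in barcodes without any UMI of the smooth muscle and pericyte markers. With the main barcodes it was 0.08 (-0.004 to 0.16) after free RNA subtraction and 0.15 (0.07 to 0.23) with TMM scaling.

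In vein cells more Chrm3 was counted at 30 h. Against 139.2 CPM in control vein, the level was 123.4 (113.4 to 134.1) in the 6 h and 196 (183.5 to 209.2) in the 30 h library. Positive vein cells were 38.7%, 42.7% and 56.2%, or 18.99%, 20.5% and 25.7% at 2000 UMIs. The log2 ratio to control was -0.17 (-0.33 to -0.02) at 6 h and 0.49 (0.36 to 0.63) at 30 h. Vein barcodes with 10 or more Chrm3 UMIs numbered 16 in the control, 5 in the 6 h and 14 in the 30 h library. They held 32.1%, 14.4% and 25.7% of the vein Chrm3 UMIs, and the counting intervals do not allow for such clumping. The lower 6 h level thus went with fewer of these barcodes, while the share of positive vein cells was not lower. In the vein class 1.19% of 10245 genes were at least 2-fold higher at 30 h, a size that Chrm3 did not reach, and 92.3% of genes were at or below its value. The vein classes held 574, 424 and 413 barcodes. Doublet removal, TMM scaling and free RNA subtraction were not run for the vein ratios.

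In gCap the Chrm3 levels were 23.5, 21.4 and 26.4 CPM, with log2 ratios of -0.14 (-0.26 to -0.02) and 0.17 (0.05 to 0.29). The 30 h interval included 0 after doublet removal (-0.03 to 0.23), without smooth muscle or pericyte UMIs (-0.07 to 0.24), with a stricter gate (-0.13 to 0.56) and in gCap-like clusters (-0.09 to 0.14). The 6 h interval included 0 without smooth muscle or pericyte UMIs (-0.25 to 0.04) and with the stricter gate (-0.42 to 0.22). Within the gCap bins of the dissociation-response genes the Chrm3 ratio at 6 h ranged from -0.74 to 0.56, and at 30 h from 0.02 to 0.61. Barcodes in no class had 27.5, 18.4 and 22.1 CPM, with log2 ratios below 0 at both times, -0.58 (-0.80 to -0.36) and -0.32 (-0.52 to -0.12). Of the 449 control UMIs in no class, 69 came from the 1 barcode named above, which the counting intervals do not allow for. In aCap, where expression of Chrm3 was not settled, the ratios were -0.05 (-0.52 to 0.42) and 0.68 (0.29 to 1.07). In LECs the intervals of both ratios included 0 (0.18, -0.30 to 0.65 at 6 h, and 0.01, -0.45 to 0.46 at 30 h). Artery cells held 24, 3 and 19 Chrm3 UMIs, a 6 h log2 ratio of -2.69 with an interval from -5.07 to -0.97. The 6 h artery level was 2.41 CPM, beside a free RNA estimate of 1.77 CPM in that library.

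**Figure D3:**
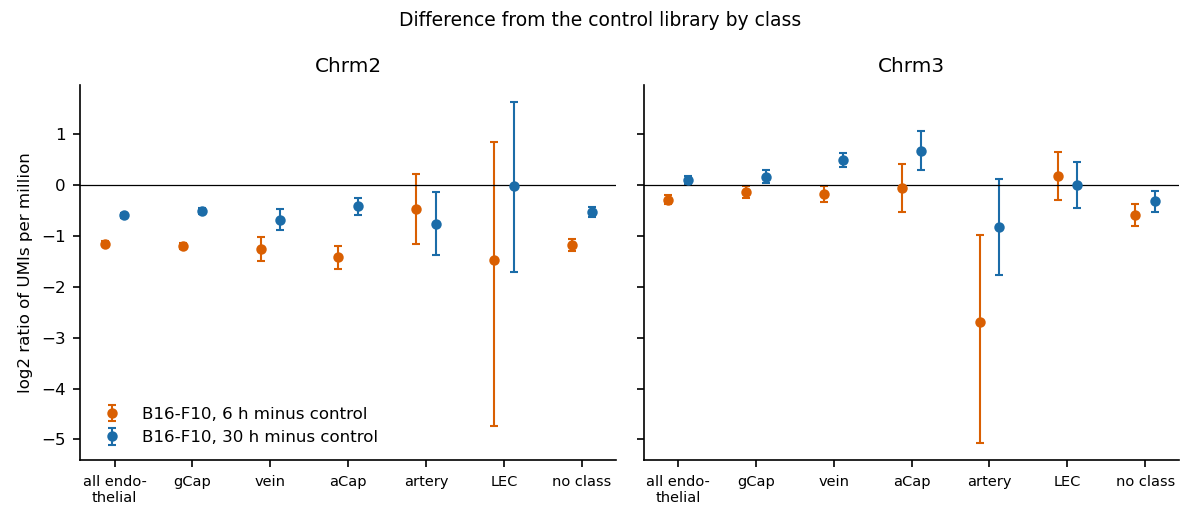
Log2 ratio of the level (CPM) of Chrm2 (left) and Chrm3 (right) in the 6 h (orange) and 30 h (blue) libraries to that in the control library, for all ECs and by class, with exact 95% counting intervals and a line at 0. Chrm2 lies between -1.15 and -1.42 at 6 h in all ECs, gCap, vein, aCap and no class, whereas Chrm3 in vein lies at -0.17 at 6 h and 0.49 at 30 h. The wide intervals are those of artery and LEC.

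RNA of other cell types was present beside the EC values. Smooth muscle, pericytes and autonomic neurons are known to carry muscarinic receptors. The 6 smooth muscle markers summed to 43.0 CPM over control ECs and to 50.5 and 51.2 CPM over those at 6 h and 30 h, the 6 pericyte markers to 80.6, 62.1 and 73.9, and the 6 neuron and glia markers to 1.79, 1.83 and 2.18. The 5 red cell markers summed to 3249 CPM over control ECs and to 2119 and 829 CPM over those at 6 h and 30 h, the 6 epithelial markers to 764, 567 and 349, and the 6 leukocyte markers to 17.5, 27.5 and 30.7. Control gCap with Chrm2 had 1604 CPM of the red cell markers and those without it 3695. The gap was smaller in the other libraries, with 2066 and 2430 CPM at 6 h and 933 and 1010 at 30 h. The part of this RNA in the Chrm2 levels was not tested. The 5 melanoma markers summed to 1.22, 13.9 and 1.02 CPM, and Tyrp1 was at 0 in the control and 30 h ECs. ECs without any smooth muscle or pericyte UMI had 116.8, 52.5 and 77.8 CPM of Chrm2, and those with at least 1 had 111, 50.5 and 73.5. The Chrm2 ratio at 6 h was as large without such barcodes (-1.15) as with them.

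For Chrm3 the split by these markers mattered at 30 h. Vein cells without smooth muscle or pericyte UMIs had 150.3, 134.1 and 180.4 CPM, a 30 h log2 ratio of 0.26, and vein cells with at least 1 had 118.4, 97.5 and 227.2 CPM, a log2 ratio of 0.94. The part of this RNA in the Chrm3 difference was not tested.

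Within gCap, the receptors were compared by genes of the arterial and venous sides of the capillary, with no position measured. Barcodes were binned by thinned UMIs of 5 artery-side genes (Ntrk2, Slc6a6, Gja4, Efnb2, Unc5b) or 6 vein-side genes (Vwf, Prss23, Selp, Ephb4, Nr2f2, Amigo2), of which Nr2f2 and Amigo2 are also vein gate markers. From 0 to 3 or more artery-side UMIs, the Chrm2 level went from 175.1 to 112.6 CPM in the control library, from 71.3 to 51.4 at 6 h and from 139.1 to 79.0 at 30 h. The Chrm3 level went from 25.3 to 13.4, from 26.4 to 16.4 and from 34.1 to 22.2 CPM. Both receptors were thus lower in the bins richest in artery-side genes, in each library.

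From 0 to 4 or more vein-side UMIs, Chrm3 went from 19.9 to 53.02 CPM in the control library (106 barcodes in the last bin, 38.7 to 71.0), from 18.8 to 58.8 at 6 h (79 barcodes) and from 22.1 to 90.1 at 30 h (53 barcodes). Chrm2 went from 143.3 to 156.7, from 58.2 to 89.8 and from 99.4 to 135.1 CPM over the same bins. The Chrm2 intervals of all 4 control bins overlapped. At 6 h the bin at 0 (55.4 to 61.1) lay below the other 3, which overlapped one another, and at 30 h the bin of 2 to 3 UMIs, at 124.3 CPM (114.5 to 134.7), lay above the bin at 0 (95.2 to 103.7), which the last bin (103.1 to 173.9) overlapped. In each of the bins the Chrm2 level was lower at 6 h than in the control library, with log2 ratios from -1.30 to -0.80.

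**Figure D4:**
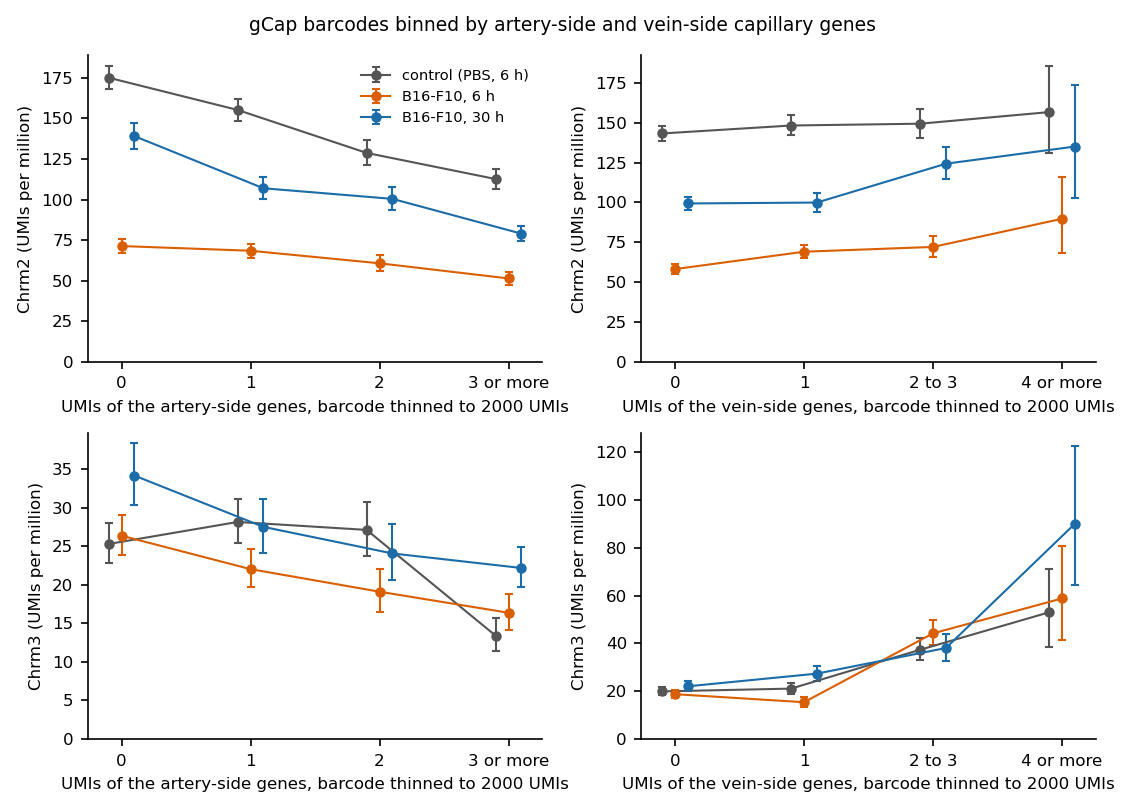
Levels of Chrm2 (top) and Chrm3 (bottom) in CPM in gCap barcodes binned by thinned UMIs of the artery-side genes (left) and vein-side genes (right), for the control (grey), 6 h (orange) and 30 h (blue) libraries, with exact 95% counting intervals. Both receptors are lower in the bin with 3 or more artery-side UMIs than in the bin with 0, and Chrm3 is higher, at 53.02, 58.8 and 90.1, in the bin with 4 or more vein-side UMIs.

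Other capillary states were compared in the same way. gCap barcodes with Esm1, a marker of angiogenic tip cells, had 59.6, 48.7 and 54.9 CPM of Chrm2 in 73, 98 and 75 barcodes, against 147, 64.0 and 103.9 in those without. Chrm3 had 0 UMIs in the Esm1-positive control gCap, which allows up to 6.87 CPM, and 5 and 6 UMIs at 6 h and 30 h.

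Genes that mark the reactive capillary state (Pim3, Bcl3, Tmem252, Inhbb, Osmr, Adamts9), which the study chose on cells that included these libraries, divided the receptors. In gCap barcodes with 3 or more of their thinned UMIs, the control level of Chrm3 was 41.2 CPM (35.0 to 48.1), while barcodes with 0 had 20.8. The 6 h library had 12.2 (10.2 to 14.5) and 24.7 CPM in these bins, and the 30 h library 14.95 (10.7 to 20.4) and 28.9. Chrm2 in the high bin was at 176.5, 61.5 and 126.7 CPM, against 135.8, 61.2 and 94.4. gCap with 3 or more of these UMIs thus had more Chrm3 than the rest in the control library and less in both melanoma libraries. By UMIs of 8 dissociation-response genes such as Fos and Jun, the highest control bin (20 or more) had 34.9 CPM of Chrm3 and the lowest (0 to 4) 15.2, with 20.9 and 22.3 at 6 h and 35.3 and 19.8 at 30 h. The part of cell handling in these values was not tested.

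Vegfc, a growth factor for lymphatic vessels, was detected together with each receptor more often than its own frequency would give. Expected numbers are the product of both shares, at 2000 UMIs per barcode. In the control library 273 of 11036 ECs had Chrm2 and Vegfc where 218.1 were expected, 1.25 times as many, and the ratios at 6 h and 30 h were 1.52 and 1.40. Within gCap they were 1.33, 1.56 and 1.30. In vein, where 63.2% of control barcodes had Vegfc, they were 0.983, 1.09 and 0.873.

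Chrm3 and Vegfc were found together in 138 control ECs where 46.5 were expected, 2.96 times as many, with ratios of 3.48 and 3.85 at 6 h and 30 h. Within gCap the ratio was 1.99, 2.53 and 2.65, from 40, 35 and 49 barcodes, and within vein 1.07, 1.02 and 1.21. The gCap level of Vegfc was 182.9 CPM in control barcodes with Chrm3 and 70.5 in those without, 143.1 and 59.2 at 6 h, and 255.7 and 90.9 at 30 h. Joint detection was in the rule that chose the genes and is given as a description.

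Joint detection of the 2 receptors depended on the depth used. In the control ECs 71 barcodes had both where 65.9 were expected, a ratio of 1.08 (0.842 to 1.36), but the ratio was 1.19 (1.02 to 1.38) at 4000 UMIs and 1.25 (1.13 to 1.39) without thinning. In the 6 h and 30 h ECs the ratios were 1.80 and 1.47 at 2000 UMIs and 1.55 and 1.66 without thinning. A difference between libraries was not tested. Within gCap the control ratio was 0.915, and those at 6 h and 30 h were 1.79 and 1.42, from 38, 30 and 36 barcodes. Without thinning, gCap with Chrm2 had 25.6 CPM of Chrm3 in the control library, against 21.5 in those without, 32.4 against 16.7 at 6 h and 37.9 against 18.6 at 30 h.

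To find the genes most like each receptor, gCap barcodes with at least 1 UMI of it were summed and set against those with none. Genes higher beside a receptor were ranked by the smallest log2 ratio of CPM + 1 over the 3 libraries and lower ones by the largest, among 6509 genes for Chrm2 and 6540 for Chrm3 that reached 20 CPM. Barcodes with a receptor were also deeper: medians were 8153 and 6817.5 UMIs for Chrm2 in the control library, and 8434 and 7312 for Chrm3. Joint detection with Vegfc was in the rule that chose the receptors, so nothing is read from the place of Vegfc in these rankings.

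By this rule, with all UMIs, Vegfc was highest beside Chrm2, at 0.62, 0.76 and 1.03 in the control, 6 h and 30 h libraries. Next was Ptgs1, the constitutive cyclooxygenase of prostanoid synthesis, at 0.57, 0.64 and 0.83. Then came Lrg1, Gm30382, Ccser1, the protocadherin Pcdh7, the histone deacetylase Hdac9, the metalloprotease Adamts6, the glycosyltransferase Gcnt2 and the protein kinase Prkcq, with a smallest ratio between 0.35 and 0.54. The lowest were Mecom, a transcription factor of arterial ECs and an artery gate marker that the gCap gate limits, at -0.68, -0.65 and -0.75, then Lyz2, Mgll, Cxcl16, Plat, Cxcl12, Trim47, Plac8, Gata6 and Igfbp7.

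Beside Chrm3, Vegfc, whose joint detection helped choose the receptors, was again the highest, at 1.36, 1.26 and 1.48. It was followed by Prkcq, at 0.93, 1.05 and 0.86, and by the vein-side genes Vwf (von Willebrand factor), at 0.83, 1.05 and 1.04, and Prss23, a serine protease, at 0.78, 0.89 and 1.00. Kank4, Samd5, Gm30382, Mir99ahg, Ptgs1 and the tetraspanin Cd81 completed the 10. The lowest were Igfbp7, Sparcl1, the semaphorin Sema5a, Lyz2, Mgll, Plat (tissue plasminogen activator), the artery-side receptor Ntrk2, at -0.61, -1.19 and -0.98, the chemokine Cxcl12, Gadd45b and Rgcc. The 10 higher genes of each receptor shared 4 (Vegfc, Ptgs1, Prkcq and Gm30382), which is 40% of each list, and the 10 lower genes shared 5 (Igfbp7, Lyz2, Mgll, Plat and Cxcl12), or 50%.

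With all barcodes at 2000 UMIs, 9 of the 10 higher and 9 of the 10 lower genes of Chrm2 lay on the same side of 0 in all 3 libraries, Pcdh7 and Gata6 being the exceptions. For Chrm3 this held for 10 of 10 higher and 9 of 10 lower genes, all but Rgcc. The genes had been chosen by their ratios in these same barcodes, so these counts are only a description. At this depth Vegfc was at 0.43, 0.80 and 0.46 beside Chrm2. Its smallest ratio was thus below those of Ptgs1 (0.55), Gm30382 (0.53) and Ccser1 (0.45). Beside Chrm3, Vegfc was at 1.18, 1.35 and 1.79 at this depth, and again nothing is read from its place.

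**Figure D5:**
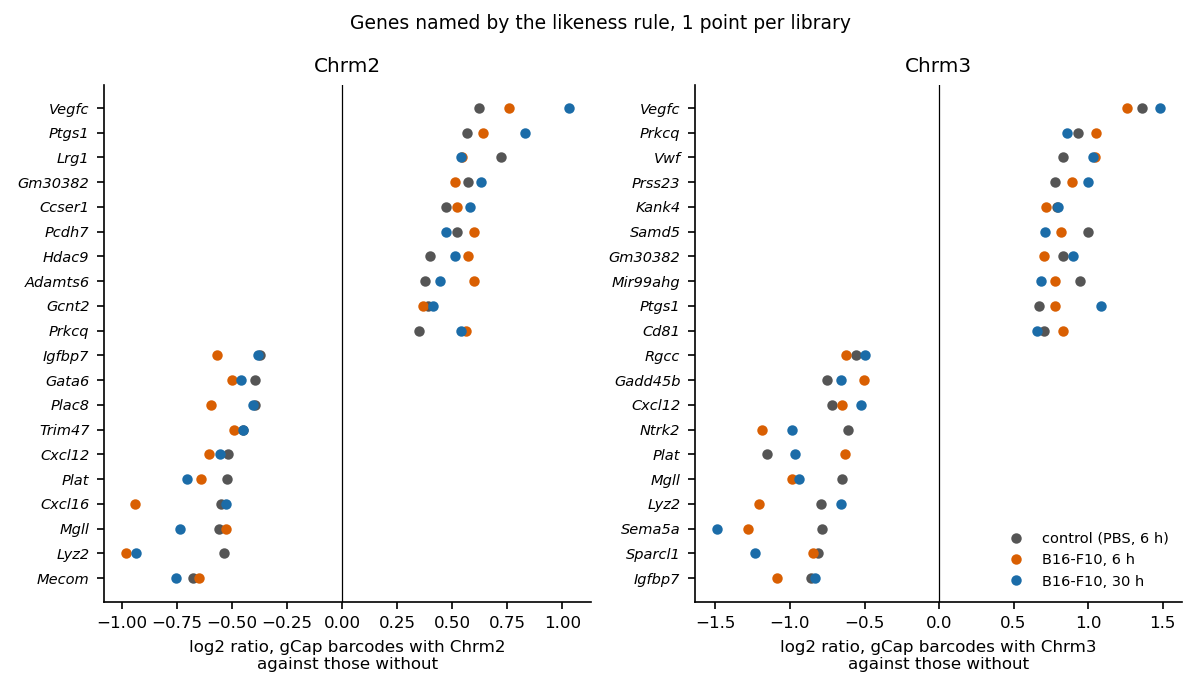
Log2 ratio of CPM + 1 in gCap barcodes with Chrm2 (left) or Chrm3 (right) to those without, for the 10 genes highest by their smallest ratio and the 10 lowest by their largest ratio over the libraries, with 1 point each for the control (grey), 6 h (orange) and 30 h (blue) libraries. Vegfc is at the top for both receptors, at 0.62, 0.76 and 1.03 for Chrm2 and 1.36, 1.26 and 1.48 for Chrm3, and the artery gate marker Mecom and the artery-side gene Ntrk2 lie below 0.

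Of the other muscarinic receptors, Chrm1 had 43, 25 and 90 EC UMIs, Chrm4 1, 0 and 2, and Chrm5 0, 0 and 1. Of 9 genes that make, move or break down acetylcholine, only the choline transporters Slc44a1 and Slc44a2 reached a mean of 5 CPM. Chat, which makes acetylcholine, and its vesicular transporter Slc18a3 were at 0 UMIs in ECs of every library, and Slc5a7, the neuronal choline transporter, had 1 UMI in all. The degrading enzyme Ache had 24, 31 and 25 UMIs. None of the 16 nicotinic receptor genes reached 5 CPM, and Chrnb1 was the highest of them at 2.42, 2.39 and 2.36 CPM.

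Genes of the Gq arm that CHRM3 is known to use were compared next. Of the 17 listed 16 passed 5 CPM, as did 31.5% of all genes, 0 of them 2-fold different from the control at 6 h or 30 h, where 0.373% and 0.806% of all genes were 2-fold higher and 0.108% and 0.885% 2-fold lower. Their medians were -0.02 and -0.06 against -0.01 and -0.07 for all genes. The genes named next were picked from the list after their class levels were seen, and the classes compared differ between them. Gna14, a Gq-class subunit, was at 154, 153 and 110 CPM in gCap against 37.0, 31.7 and 33.1 in aCap. The phospholipase Plcb1 showed a like gap, at 606, 526 and 939 CPM in gCap and 121, 92.9 and 211 in aCap. Itpr1, a calcium release channel of internal stores, was at 173 CPM in control vein, 248 in LECs and 80.8 in gCap. Nos3, the endothelial nitric oxide synthase, was at 79.7, 67.6 and 94.4 CPM in vein and 24.5, 28.1 and 39.0 in gCap.

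Of 18 listed genes of the Gi arm of CHRM2, which include channels of heart and neurons, 8 passed 5 CPM. Of these 0 were past 2-fold at either time, beside the same shares of all genes, with medians of 0.02 and -0.08. Gnai2, the main inhibitory subunit here, was at 957 CPM in control gCap. Gnao1, another subunit of that family, was at 35.9 CPM in gCap and 212 in aCap. The potassium channel genes Kcnj3, Kcnj5, Kcnj6 and Kcnj9, which Gi proteins open in heart and neurons, stayed under 0.1 CPM in ECs.

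Among 16 receptor kinases, arrestins and RGS proteins, which switch such receptors off, 13 passed 5 CPM. None was 2-fold different at 6 h, and at 30 h 1 was 2-fold lower, beside 0.885% of all genes: Rgs2, a regulator of Gq signalling, at 26.8, 21.1 and 11.05 CPM in gCap. The receptor kinase Grk5 was at 182, 162 and 126 CPM in gCap.

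The gene models leave one limit. The long noncoding gene 9330158H04Rik overlaps the start of Chrm2 on the opposite strand, up to position 36390191. It had 232, 107 and 128 EC UMIs, a 6 h log2 ratio of -1.06 (-1.40 to -0.72), beside 10420, 4519 and 6199 UMIs of Chrm2. Chrm3 overlaps 3 noncoding genes of the count table, each under 50 UMIs per library. Whether the counting used strand was not stated in the sources used here, and if it did not, reads of 9330158H04Rik and Chrm2 in the overlap cannot be told apart.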

How the data were processed

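Sorted lung cells had been sequenced from RNA 3′ ends with 10x Genomics chemistry. The deposited matrices hold raw UMI counts, unfiltered and not normalized, which the authors made with Cell Ranger 7.2.0 per the file headers, on mm10 per the labels. Whether intronic reads were counted, and on which strand, was not given in the sources used here. Total counts were 140601123 (control), 132566934 (6 h) and 124085451 (30 h) UMIs, over 1792904 to 1911655 listed barcodes.

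Both members, the marker and pathway lists and the gates were chosen with earlier results of these data known. ECs were filtered as in the report. A barcode was aCap, artery, vein or LEC with at least 10 UMIs of that class's markers and at least 2 times those of each of the other three. It was gCap with at least 10 gCap marker UMIs and fewer than 5 of each other class. These limits were set after marker distributions had been seen. Doublets were kept, and Scrublet removal was an alternative, which took 9.20%, 8.74% and 7.61% of barcodes. Within each library, the UMIs of a class were added up and expressed as CPM. Sums have exact Poisson intervals, ratios exact conditional binomial intervals and shares Clopper-Pearson intervals, all covering counting error only. No p-value was computed. Log2 ratios between libraries are of CPM, and those counted across genes are of CPM + 1, which understates changes of low genes, over genes averaging 5 CPM or more.

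The named genes were the 10 highest and 10 lowest by the likeness rule given in the report, besides the receptors and the listed genes of which a result is given. Genes of these lists were also named where their class levels showed a result, which was decided after their values were seen. Tools were Python 3.11.15, SciPy 1.17.1, scanpy 1.11.5, leidenalg 0.10.2 and edgeR 4.0.16 (TMM factors only). The interval code was tested on simulated data. Positions are from GENCODE M21 on GRCm38, the assembly of mm10. Some genes of the lists are not reported here.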

Additional observations from a re-analysis of the deposited data

Results flagged for a closer look

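In all ECs, gCap and vein, Chrm3 lay on opposite sides of the control in the 6 h and 30 h libraries, which is why it is listed here. In all ECs the log2 ratio to control was -0.29 at 6 h and 0.10 at 30 h. In gCap it was -0.14 and 0.17, and in vein -0.17 and 0.49. Each value comes from 1 library per group, both ratios share the control library, and the difference between them was not tested against replicates. In vein barcodes the 30 h ratio was 0.26 without and 0.94 with smooth muscle or pericyte UMIs, and in all ECs it was -0.07 without them and 0.012 after doublet removal. In gCap the 30 h interval included 0 under 4 alternatives and the 6 h interval under 2. In gCap with 0 thinned UMIs of the reactive genes the ratios were 0.24 (0.06 to 0.43) at 6 h and 0.47 (0.30 to 0.65) at 30 h. With 3 or more they were -1.75 and -1.46. In the lowest bin of the dissociation-response genes (0 to 4) they were 0.56 (0.28 to 0.84) and 0.38, and in the highest (20 or more) -0.74 and 0.02. The sign of the 6 h ratio was thus not the same across bins of gCap. Of the other classes, no class (-0.58 and -0.32) and artery (-2.69 and -0.81) lay below the control at both times. The 30 h artery interval (-1.76 to 0.12) included 0, and 69 of the 449 control UMIs in no class came from 1 barcode. LEC was at 0.18 and 0.01, with intervals that both included 0. In aCap the ratios were -0.05, with an interval that included 0, and 0.68.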

How the results depend on the processing

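No paired analysis was possible because each group had 1 library, and no library could be left out for the same reason. Of 89 alternative values, 80 stayed within the counting interval of the reported value or, for a count of genes, within 1.5 times of it. The Chrm2 ratio at 6 h stayed between -1.20 and -1.13 in ECs and between -1.22 and -1.16 in gCap under every alternative run (doublet removal, other barcode limits, TMM scaling, other totals, free RNA subtraction, for gCap also a stricter gate and Leiden clusters, and barcodes without smooth muscle or pericyte UMIs, the last chosen after seeing the data). At 30 h the Chrm2 ratio in ECs was -0.54 with TMM scaling and -0.54 with totals that leave out mitochondrial, ribosomal protein and rRNA-like genes, and in gCap it was -0.41 without smooth muscle or pericyte UMIs. The Chrm3 ratio at 30 h in ECs was 0.012 after doublet removal and turned to -0.074 without smooth muscle or pericyte UMIs, and in gCap it was 0.027 when gCap-like clusters replaced the gate. The cause was not tested. These alternatives were run for ECs and gCap, and the vein ratios were only split by smooth muscle and pericyte UMIs. Joint detection of Chrm3 with Vegfc in the control library was 2.47 times that expected without thinning and 1.99 times in gCap alone. With genes down to a mean of 1 CPM, 18 rather than 11 genes were 2-fold lower at 6 h, as more genes were counted. The number of barcodes limited artery (127 to 208) and LEC (52 to 72), where a receptor had as few as 2 or 3 UMIs.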

Other observations

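Both receptors were low in a Leiden cluster led by Inhbb, Tubb6, Csf2 and Myc, 811 of whose 945 barcodes came from the 6 h library. In those 811 barcodes Chrm2 was at 36.5 CPM (32.3 to 41.2) and Chrm3 at 2.19 CPM (1.25 to 3.56, 16 UMIs). In the 3173 barcodes of the 6 h library in the cluster led by Egr1, Socs3 and Atf3, they were at 66.0 and 27.4 CPM. The 92 control barcodes of the Inhbb cluster had 151 CPM of Chrm2 and 40.6 CPM of Chrm3, the latter in 5 barcodes, of which the highest held 25 UMIs.

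In a cluster led by the interferon-induced genes Ifit1, Ifit3 and Isg15, the control library had 143 CPM of Chrm2 and 44.9 of Chrm3, the 6 h library 80.1 and 35.4, and the 30 h library 103 and 22.98. In a small cluster led by Fabp4, Rbp7 and Cdh13, Chrm3 was at 355 CPM in 35 control barcodes, of whose 101 UMIs 69 lay in 1 barcode, and at 22.9 and 48.0 CPM at 6 h and 30 h. These clusters were chosen after their values were seen.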
